A study of Mus musculus with 3 samples.

Results

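The genes of the platelet-derived growth factor (PDGF) system were read from RNA-seq of wounded primary mouse fibroblasts exposed to the soluble micrograft (MG) together with PD0325901, an inhibitor of the kinase MEK. They are the 4 ligand genes Pdgfa, Pdgfb, Pdgfc and Pdgfd and the 2 receptor genes Pdgfra and Pdgfrb, chosen by gene name, and all 6 were found among the 43472 rows of the expression table. The cells were grown from tail tips of C57BL/6 mice, scratched in culture to model a wound, and received MG and inhibitor for 5 h. MG is a cell-depleted extract of mouse skin, diluted in growth medium that contained serum. The 3 libraries are biological replicates 1, 2 and 3 of this 1 condition, and all carry the inhibitor, so no comparison between conditions was made. Neither the labels nor the methods say how many animals gave the cells, or whether animals were pooled.

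PDGF ligands are secreted as disulfide-linked dimers, and are classical mitogens and attractants for fibroblasts and other mesenchymal cells. PDGF-A and PDGF-B are cut by furin-type convertases inside the cell, whereas PDGF-C and PDGF-D leave the cell in a latent form whose CUB domain is removed outside it, by tissue plasminogen activator for PDGF-C and by urokinase for PDGF-D. PDGF-A and PDGF-C act mainly on the alpha receptor, PDGF-D mainly on the beta receptor, and PDGF-B on both. The receptors are tyrosine kinases that signal through Ras, MEK and ERK, through PI3-kinase and through phospholipase C gamma, so the inhibitor acts downstream of them on the first of these branches. In wounded skin, platelets and macrophages are known sources of ligand, and dermal fibroblasts carry the receptors.

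The 4 ligands share a cysteine-rich growth factor core, and the stretch of coding sequence at its centre is shown because it separates the classical from the CUB-containing pair. The coding sequences come from GENCODE M21 (GRCm38), are written 5′ to 3′ on the coding strand, and have their cysteine codons in capitals. Each stretch lies within 1 exon.
Pdgfa: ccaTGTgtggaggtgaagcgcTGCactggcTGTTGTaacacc
Pdgfb: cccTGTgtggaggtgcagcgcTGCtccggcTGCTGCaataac
Pdgfc: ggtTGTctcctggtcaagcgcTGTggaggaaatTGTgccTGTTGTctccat
Pdgfd: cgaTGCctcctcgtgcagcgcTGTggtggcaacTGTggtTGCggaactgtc

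The windows lie at chr5:138986238-138986279 (Pdgfa, minus strand), chr15:80001730-80001771 (Pdgfb, minus strand), chr3:81209157-81209207 (Pdgfc, plus strand) and chr9:6359813-6359863 (Pdgfd, plus strand). From the arginine codon before the second capital triplet to the end of the core motif there are 6 codons in Pdgfa and Pdgfb and 9 in Pdgfc and Pdgfd. The last triplet of this motif codes for cysteine in the other ligands and not in Pdgfd, and an added cysteine codon lies within the longer form, which leaves 5 cysteine codons in the Pdgfc window and 4 in each of the others. The whole coding sequences span 211 codons for Pdgfa, 241 for Pdgfb, 345 for Pdgfc and 370 for Pdgfd. No stretch of 50 bases, the length of the reads, was shared between the transcripts of any of the 6 PDGF genes. The annotated transcripts of Pdgfb, Pdgfd and Pdgfrb also shared none with any other gene, so uniquely aligned reads tell these paralogs apart. For Pdgfa, 21.3% of the 50-base stretches were also found in 6330403L08Rik, a gene antisense to it. The strand setting of the read counting is not given in the sources used here, so the split between the Pdgfa and 6330403L08Rik reads is uncertain.

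Levels are given as normalized counts, that is, reads on a gene divided by the size factor of the library. The libraries held 17244505 to 27037783 reads on genes. Here the range of a gene is the level in its highest library over that in its lowest, with 1 normalized count added to each. It exceeded 2-fold for 3480 (26.5%) of the 13154 genes that averaged at least 10 normalized counts, and its median was 1.52-fold. Replicate 2 stood apart from the rest most often, with 10.1% of these genes more than 2-fold above or below both other libraries, against 4.26% for replicate 1 and 3.58% for replicate 3. All 6 PDGF genes passed this minimum, and the lowest read count behind any of their values was 116.

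Of the classical ligands, Pdgfa was moderately and Pdgfb strongly variable between replicates. Pdgfa (chromosome 5, 138976014 to 138997370, minus strand) was read at 1692 normalized counts in replicate 1, 1439 in replicate 2 and 842 in replicate 3, averaging 1324 ± 437 (SD, n = 3). Replicate 3 was the lowest, 2.01-fold under replicate 1, which places Pdgfa at the very edge of the 2-fold limit. The antisense gene 6330403L08Rik had 138, 171 and 153 normalized counts and was highest in replicate 2, not where Pdgfa was highest. Pdgfb (chromosome 15, 79995874 to 80014977, minus strand) was read at 684, 81.7 and 399, averaging 388 ± 301 (SD, n = 3). Replicate 2 was far under the others, 8.28-fold below replicate 1 and 4.84-fold below replicate 3. These values rested on 788, 116 and 337 reads, and 116 reads carry a counting error of 9.28%, far smaller than the gap. In these bulk libraries, fewer cells that express a gene and less of its RNA per cell cannot be told apart. Without replicate 1 the mean of Pdgfb was 241 normalized counts, and without replicate 2 it was 542.

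Of the CUB-containing ligands, Pdgfc varied less between replicates than Pdgfd. Pdgfc (chromosome 3, 81036416 to 81214040, plus strand) was read at 2081 normalized counts in replicate 1, 2890 in replicate 2 and 2375 in replicate 3. Its mean of 2449 ± 410 (SD, n = 3) was the highest of the ligands before division by length, and its libraries lay within a 1.39-fold range. Pdgfd (chromosome 9, 6168584 to 6378850, plus strand) was read at 399, 1997 and 244, averaging 880 ± 970.2 (SD, n = 3). Here replicate 2 stood above the others, by 4.99-fold over replicate 1 and 8.15-fold over replicate 3, the opposite direction to Pdgfb. The SD exceeded the mean, and without replicate 2 the mean was 322 normalized counts. The values rested on 460, 2834 and 206 reads. 

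Both receptor genes had a narrower range between replicates than Pdgfa, Pdgfb and Pdgfd. Pdgfrb (chromosome 18, 61045150 to 61085061, plus strand) was read at 2894 normalized counts in replicate 1, 2942 in replicate 2 and 3129 in replicate 3. Its mean of 2988 ± 124 (SD, n = 3) was the highest of the PDGF genes before division by length, and its range of 1.08-fold was the narrowest. Pdgfra (chromosome 5, 75152292 to 75198215, plus strand) was read at 214, 306 and 259.6, averaging 260.0 ± 45.7 (SD, n = 3), with a range of 1.42-fold. Replicate 1 was lowest for both receptors. Pdgfra overlaps antisense models and 4.93% of its 50-base stretches occur in other annotated genes, whereas Pdgfrb had none. The biological coefficient of variation fitted by edgeR to the reads was 21.7% for Pdgfrb, 22.9% for Pdgfc, 28.6% for Pdgfa and 29.8% for Pdgfra. It was 58.8% for Pdgfb and 62.8% for Pdgfd, against trend values of 31.5% and 27.1% for genes of their abundance. These fitted values are pulled toward the trend, which was 26.0% for Pdgfrb, 25.7% for Pdgfc, 25.5% for Pdgfa and 34.5% for Pdgfra. The observed SD over the mean was 4.16% for Pdgfrb, 16.7% for Pdgfc, 17.6% for Pdgfra and 33.0% for Pdgfa. It was 77.6% for Pdgfb and 110% for Pdgfd. The common fitted coefficient of variation over 12352 genes was 32.0%.

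**Figure D1:**
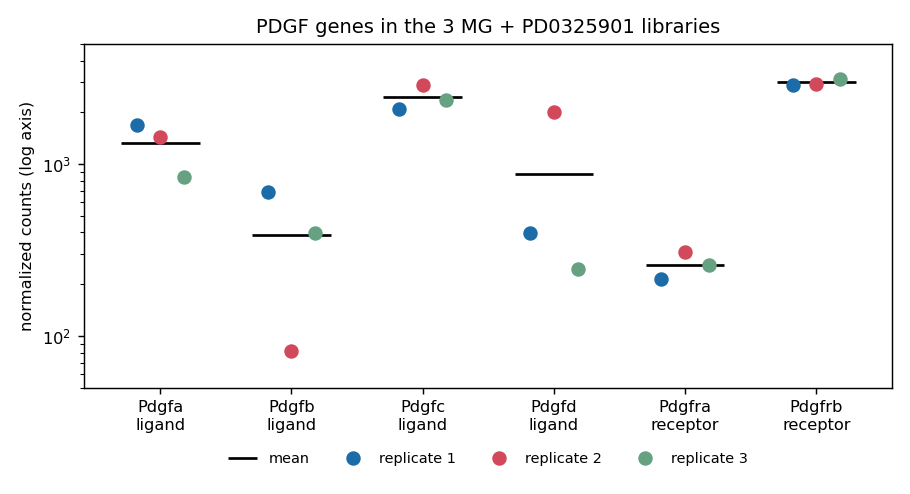
Normalized counts (log axis) of the 6 PDGF genes, with 1 point for each of the 3 replicates and a bar at the mean. The points of Pdgfrb, Pdgfc and Pdgfra lie close together, while in replicate 2 Pdgfb fell to 81.7 and Pdgfd reached 1997.

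The PDGF genes were then set beside the spread of the whole transcriptome. A range of more than 2-fold was found for 3 of the 6 genes, Pdgfa, Pdgfb and Pdgfd, beside 26.5% of all genes tested. Pdgfd was more than 2-fold above both other libraries in replicate 2, as were 5.20% of genes, and Pdgfb more than 2-fold below both, as were 4.87%. No PDGF gene stood apart in this way in replicate 1 or in replicate 3. Without replicate 2, only 1 of the 6 genes, Pdgfa, kept a range of more than 2-fold. Leaving out a library cannot widen the range of any gene. The share of all genes past the limit in that setting is not given here, so this count does not set the PDGF genes apart. With a limit of 3-fold, which 11.8% of genes passed, Pdgfb and Pdgfd were still counted and Pdgfa was not.

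**Figure D2:**
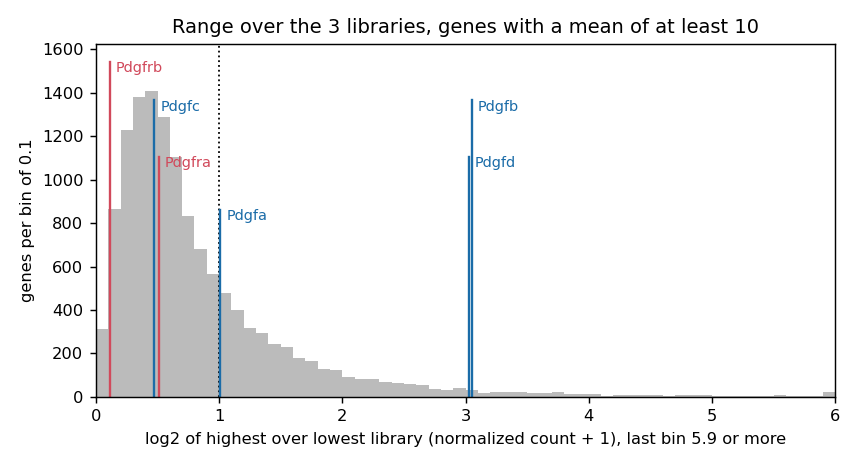
Histogram of the highest over the lowest library (log2 of normalized count + 1) for the 13154 genes with a mean of at least 10, with the 2-fold limit dotted, ligands in blue and receptors in red. Pdgfb and Pdgfd lie together near 8-fold in the right tail, Pdgfa on the limit, and the other PDGF genes below it.

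Exact binomial tests on the reads (two-sided, Benjamini-Hochberg adjusted over all genes, threshold 0.05) compared the libraries in pairs. They cover counting error only, and speak of these libraries rather than of conditions. Between replicates 1 and 2, 5 of the 6 PDGF genes were called, beside 68.4% of all genes tested. Between replicates 1 and 3 it was 5 of 6 beside 51.1%, and between replicates 2 and 3 it was 5 of 6 beside 62.0%. Pdgfrb was the gene not called between replicates 1 and 2 (1.02-fold, adjusted p = 0.558 by the exact test). Pdgfra was not called in the other pairs, with adjusted p = 0.0813 for replicates 1 and 3 and adjusted p = 0.0791 for replicates 2 and 3 by the exact test. Most genes tested were called in every pair, so these counts do not set the PDGF genes apart. With libraries scaled by total reads, Pdgfrb was not called between replicates 1 and 3, and between replicates 2 and 3 Pdgfra was called in place of Pdgfrb. When a difference of more than 2-fold was required as well, Pdgfb and Pdgfd were called between replicates 1 and 2, beside 19.8% of genes, and between replicates 2 and 3, beside 16.1%. Under the same rule Pdgfa alone of the 6 was called between replicates 1 and 3, beside 8.78%.

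Genes were compared with each other only after division by the length of their exons in kb, since longer transcripts collect more reads. By mean level the order was Pdgfrb with 546 ± 22.7 normalized counts per kb (SD, n = 3), Pdgfc with 481 ± 80.5, Pdgfa with 425 ± 140, Pdgfd with 279 ± 308, Pdgfb with 93.4 ± 72.4 and Pdgfra with 25.9 ± 4.56. Among the 11620 genes detected in every library and matched to 1 annotated gene, Pdgfrb stood at percentile 85.0 of the level per kb, Pdgfb at 46.3 and Pdgfra at 19.0. None of the 5 pairs of neighbours in this order was separated beyond the spread between libraries. In exact two-sided sign-flip tests over the 3 libraries, which cannot give less than 0.25, the smallest p was 0.50 and the smallest adjusted p 0.833. No pair of neighbours had the same order in every library. With the longest transcript as length, Pdgfc (695 normalized counts per kb) and Pdgfa (643) stood above Pdgfrb (551), while Pdgfd, Pdgfb and Pdgfra kept ranks 4, 5 and 6.

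The beta receptor transcript outnumbered the alpha receptor transcript in every library. The ratio of Pdgfrb to Pdgfra per kb was 24.7, 17.6 and 22.1 in replicates 1, 2 and 3, and between 12.1 and 17.0 with the longest transcript as length. Pdgfra thus made up 3.89%, 5.38% and 4.34% of the summed receptor level per kb. That sum was 550, 568 and 597 normalized counts per kb, and differed little between replicates. Related receptors of the same class were low or at 0. Kit, whose gene lies next to Pdgfra with a gap of 377 kb, had no reads in any library. Flt3 had 5.21, 1.41 and 0 normalized counts. Csf1r, which starts 15.5 kb beyond Pdgfrb, had 57.3, 179 and 161 normalized counts. Its highest library was replicate 2 and its lowest replicate 1, a 3.09-fold range where Pdgfrb had 1.08-fold. A count of 0 allows up to 3 reads, or 2.11 to 3.56 normalized counts depending on the library, for counting error only.

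In contrast to the receptors, the make-up of the ligand transcripts differed between replicates. Summed over the 4 ligands, the level was 1243, 1682 and 909.97 normalized counts per kb in replicates 1, 2 and 3 and averaged 1278 ± 387 (SD, n = 3). Pdgfa made up 43.7%, 27.4% and 29.7% of this sum, and Pdgfc 32.9%, 33.8% and 51.3%. Per kb of exon, the most abundant ligand transcript was Pdgfa in replicate 1, Pdgfd in replicate 2 and Pdgfc in replicate 3. With the longest transcript as length it was Pdgfc in replicate 2 as well, with 821 normalized counts per kb, ahead of Pdgfa with 698 and Pdgfd with 638. Pdgfb made up 13.2%, 1.17% and 10.5% of the sum. Pdgfd made up 10.2%, 37.6% and 8.51%, or 7.20%, 29.2% and 6.01% with the longest transcript. Of the beta receptor ligands, Pdgfb was above Pdgfd in replicates 1 and 3, and Pdgfd far above Pdgfb in replicate 2. The ratio of Pdgfd to Pdgfb per kb was 0.770, 32.2 and 0.806 in the 3 libraries. For the ligands of the alpha receptor, the ratio of Pdgfc to Pdgfa was 0.753, 1.23 and 1.73.

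**Figure D3:**
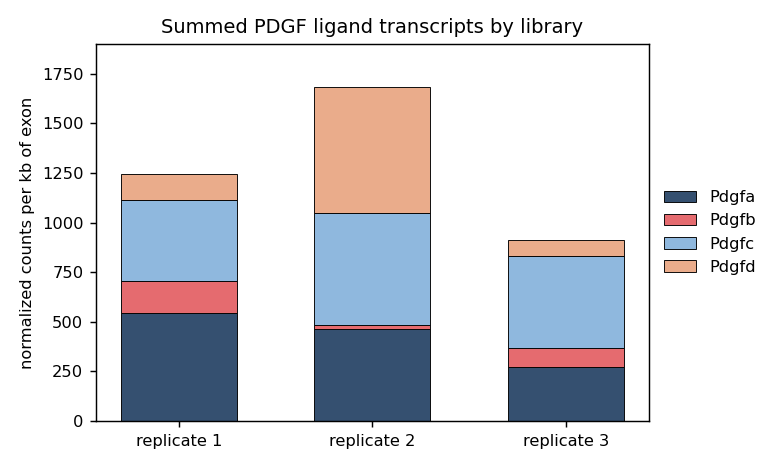
Stacked level of the 4 ligand genes in each replicate, in normalized counts per kb of exon. Pdgfd takes 37.6% of the bar in replicate 2 and 8.51% to 10.2% in the others, while Pdgfb shrinks to 1.17%.

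Promoter windows of 300 bases around the RefSeq start (GRCm38.p6) were found for 4 of the 6 genes, Pdgfa, Pdgfc, Pdgfd and Pdgfra. The windows of Pdgfd, which in replicate 2 was more than 2-fold above both other libraries, and of Pdgfa are shown. Both are on their own strand, 5′ to 3′, with matches to the motifs of the next paragraph, read on either strand, in capitals. They lie at chr9:6168236-6168535 (plus strand) and chr5:138994895-138995194 (minus strand).
Pdgfd: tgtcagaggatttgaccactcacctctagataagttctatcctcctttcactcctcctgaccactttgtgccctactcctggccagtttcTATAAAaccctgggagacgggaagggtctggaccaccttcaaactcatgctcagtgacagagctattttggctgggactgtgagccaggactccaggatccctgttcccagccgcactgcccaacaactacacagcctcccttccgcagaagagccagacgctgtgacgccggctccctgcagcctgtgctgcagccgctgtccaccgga
Pdgfa: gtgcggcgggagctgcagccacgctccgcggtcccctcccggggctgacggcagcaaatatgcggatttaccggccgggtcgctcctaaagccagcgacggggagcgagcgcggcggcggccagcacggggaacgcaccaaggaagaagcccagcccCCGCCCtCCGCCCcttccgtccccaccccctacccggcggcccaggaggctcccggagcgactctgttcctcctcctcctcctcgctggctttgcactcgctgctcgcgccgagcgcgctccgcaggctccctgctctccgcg

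Both strands were searched for the AP-1 site TGANTCA, the GC box GGGCGG, the TATA sequence TATAAA and the CArG box. AP-1 is the transcription factor the study followed, and a serum response factor binds the CArG box. None of the 5 windows of these genes held the AP-1 letters, which occur in 7.81% of all 32851 promoter windows. The Pdgfa window had 2 GC boxes, starting 93 and 86 bases upstream of the start, and a second annotated Pdgfa start had 1. The GC box is common, in 35.7% of windows. The Pdgfd window held TATAAA 160 bases upstream of the start (13.6% of windows) and no GC box. The Pdgfc window held a CArG box 17 bases upstream of the start, which 1.63% of windows do, and the Pdgfra window held none of the motifs. The GC content was 73.3% in the Pdgfa window and 56.7% in the Pdgfd window, against a median of 52.7% over all windows. Pdgfa had 37 CpG dinucleotides there and Pdgfd 8.

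The proteases that process PDGF ligands were all detected, and 2 of 7 had a range of more than 2-fold, beside 26.5% of all genes. The median range of this list was 1.52-fold, as over all genes. Furin, which cuts PDGF-A and PDGF-B, was read at 2417, 2958 and 3674 normalized counts in replicates 1, 2 and 3. Plat, the gene of tissue plasminogen activator, had 2640, 4872 and 1536 normalized counts, highest in replicate 2 and lowest in replicate 3, with a 3.17-fold range. Plau, the gene of urokinase, had 28792, 10676 and 44245 normalized counts. It was lowest in replicate 2, the library with the highest Pdgfd, and highest in replicate 3, the library with the lowest Pdgfd. Per kb Plau was the most abundant of these proteases, with a mean of 11789 normalized counts per kb. Pcsk5 and St14 were low, with means of 3.40 and 1.95 normalized counts per kb.

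Proteins that bind PDGF ligands or their receptors were all detected as well. A range of more than 2-fold was found for 3 of these 6, beside 26.5% of all genes, with a list median of 2.00-fold. Nrp1, a co-receptor, had 2233, 4256 and 1795 normalized counts, highest in replicate 2. Itgb3, an integrin chain, had 406, 1366 and 797, also highest in replicate 2. Cspg4, the proteoglycan NG2, had 3546, 5232 and 11476, and was highest in replicate 3. Sparc and Thbs1, matrix proteins that bind PDGF, stayed within 1.31-fold and 1.38-fold ranges and had the highest levels per kb of this list, followed by the endocytic receptor Lrp1 with 17409, 21453 and 28209 normalized counts.

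Genes of receptor-proximal signalling were read next. Their lowest mean was 295 normalized counts (Nck2), whereas the genes behind the shares over all genes averaged as little as 10. Ranges at like abundance were not compared. All 19 were detected, and 3 of them (Nck2, Rasa1 and Stat5a) had a range of more than 2-fold, beside 26.5% of all genes. The list median was 1.39-fold against 1.52-fold over all genes. Replicate 2 was the highest library for 14 of the 19 genes, beside 40.3% of all 13154 genes, but none was more than 2-fold above both others there. The highest of the list per kb were Crk, Ptpn11 and Shc1, with means of 955, 836 and 627 normalized counts per kb. Ptpn11, the phosphatase SHP2, had 4805, 7258 and 6737 normalized counts. Grb2, the adaptor that brings Sos to the receptor, had 1802, 1621 and 1683. Rasa1, the Ras GTPase-activating protein that docks on the beta receptor, had 341, 712 and 466, lowest in replicate 1.

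Of the 8 genes listed under receptor attenuation, 3 (Cbl, Socs1 and Socs3) had a range of more than 2-fold, beside 26.5% of all genes. The list median was 1.58-fold against 1.52-fold over all genes. The highest per kb were the phosphatases Acp1, Ptpn2 and Ptpn1, none of which had a range of more than 2-fold. Cbl, a ubiquitin ligase of activated receptors, had 30.4, 290 and 134 normalized counts and a 9.28-fold range, with replicate 1 the lowest and replicate 2 the highest. Its paralog Cblb had 795, 574 and 659, a 1.38-fold range. Socs3, a feedback inhibitor of cytokine signalling, had 625, 225 and 1073 normalized counts and was lowest in replicate 2. Socs1 was also lowest there, with 65.1, 23.3 and 59.3.

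Classical early response genes of PDGF-treated fibroblasts made up the last list. Like the other lists, it was chosen with earlier results of these data known, so its counts are descriptions. For 9 of the 10 the lowest library was replicate 2, beside 37.5% of all 13154 genes, and 3 of them, Ccl2, Ier3 and Junb, were more than 2-fold below both others, beside 4.87% of all genes. A range of more than 2-fold was found for 5 of 10, beside 26.5% of all genes, and the list median was 2.46-fold. Ccl2 and Cxcl1, both chemokines, had 37108, 11740 and 35007 and 12229, 6635 and 22360. Ier3, an immediate early gene, had 22607, 6647 and 21423 normalized counts. Egr1, a zinc finger factor that depends on ERK, was low everywhere, with 57.3, 16.2 and 30.8. Odc1, the first enzyme of polyamine synthesis, had 5124, 3089 and 4207. Myc was the steadiest, with 1309, 1257 and 1286 normalized counts and a 1.04-fold range. Fos was the exception to the order, with 34.7, 61.3 and 34.4. Whether these genes responded to PDGF in these cultures was not tested.

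**Figure D4:**
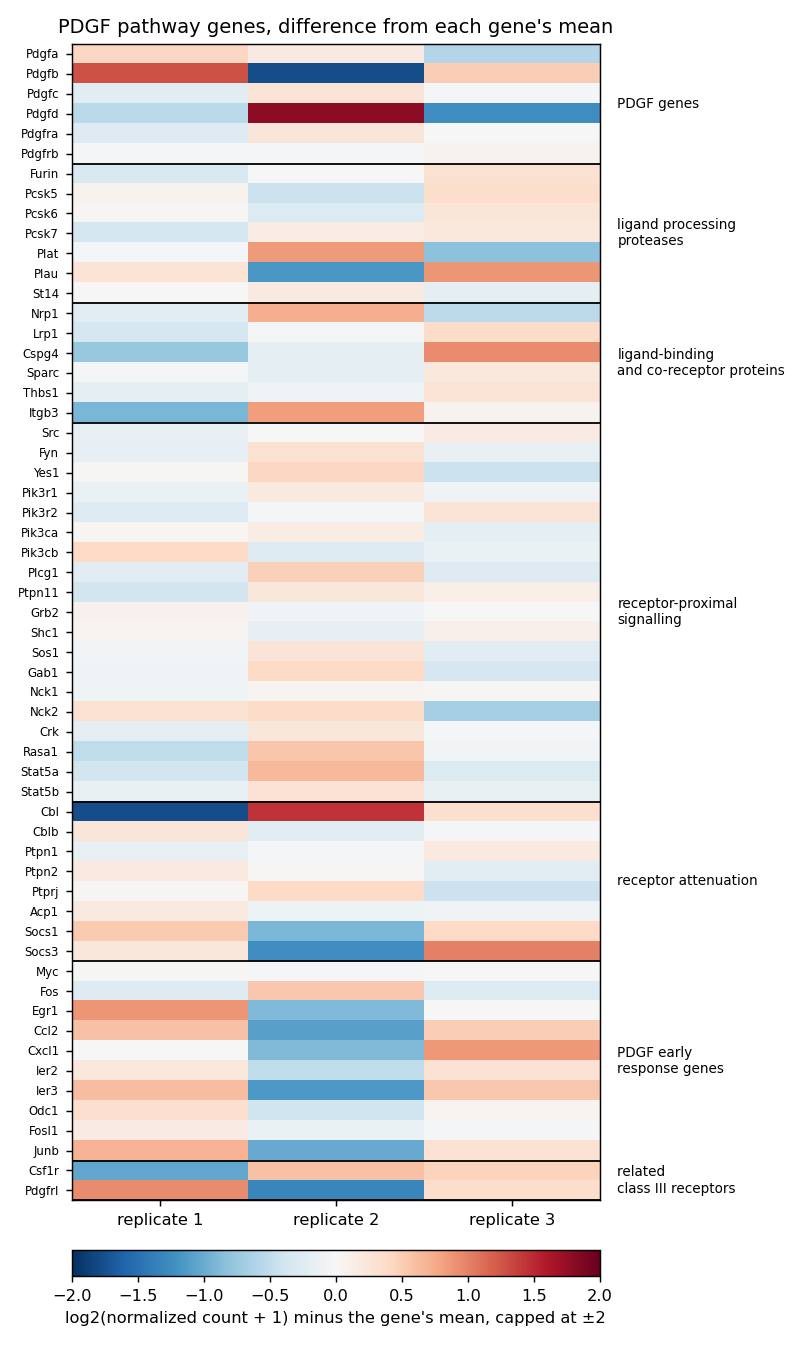
Heat map of the PDGF genes and the pathway lists in the 3 replicates, as log2(normalized count + 1) minus the mean of each gene, for genes with a mean of at least 10. Pdgfb and Pdgfd have opposite colours in replicate 2, and Pdgfrb is nearly white. Of the 10 early response genes, 9 are lowest in replicate 2, beside 37.5% of all 13154 genes.

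The labelled cell type was checked against marker genes, and markers of other PDGF-related cells are given beside the ligands. All 7 fibroblast markers were detected in every library, among them Col1a1 with 157553, 154124 and 246175 normalized counts. Fap, a protease of activated fibroblasts, was near the minimum, with 13.9, 16.2 and 17.8. Lum, a small proteoglycan, had 5073, 289 and 1164 and was lowest in replicate 2. Mural cells, that is, pericytes and smooth muscle cells, carry the beta receptor in tissue. Of 7 mural markers, 5 averaged at least 10 normalized counts. Among these 5, Notch3, Des and Mcam were highest in replicate 2, as were Pdgfd and 40.3% of all genes. Notch3 had 40.8, 228 and 23.7 normalized counts, and Des had 212, 1208 and 77.0. Both were more than 2-fold above the other libraries in replicate 2, as were 5.20% of all genes. Mcam had 886, 1496 and 544. Kcnj8 and Abcc9, which define pericytes, were at 0.705 or less and at 4.23 or less in every library, and Rgs5 was highest in replicate 1, with 208, 106 and 104. The summed mural list was 4894, 8274 and 12225, and most of it was Cspg4, which was highest in replicate 3. The part of mural cells in the Pdgfd values was not tested.

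Endothelial cells and macrophages make PDGF-B in tissue. The 5 endothelial markers summed to 13.9, 4.93 and 3.56 normalized counts in replicates 1, 2 and 3, with Tie1 and Emcn at 0 in every library. The 4 macrophage and leukocyte markers found in the table summed to 81.6, 215 and 205, and most of this was Csf1r, given above. Ptprc, the leukocyte common antigen, had at most 1.74 normalized counts. Tyrobp had 0, 2.11 and 15.4, and Cd68 had 22.6, 33.1 and 27.3. The part of these cells in the Pdgfb values was not tested. The keratinocyte markers Krt5, Krt14 and Krt1 were at 2.37 or less, and Krt10 had 80.8, 39.5 and 32.0. Pax7 and Myod1, which define muscle progenitors, had no reads, although Acta1 had 2429, 7286 and 5586 normalized counts. The 4 tendon and cartilage markers summed to 2770.01, 444 and 1642, lowest in replicate 2 as Pdgfb was. In replicates 1 and 3, but not in replicate 2, most of this was Scx, a tendon factor, with 2470, 168 and 1381. Tnmd, which defines mature tendon cells, had 124, 127 and 107, and Sox9 had 171, 149 and 117, both lowest in replicate 3. Of the 4 markers, 2 were lowest in replicate 2, beside 37.5% of all genes. The part of tendon cells in the Pdgfb values was not tested. Sox10, of Schwann cells, had at most 2.37.

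The genes next to the 2 most variable ligands and to Pdgfa were read as well. Pdgfb lies between Cbx7, with 89.4, 40.2 and 59.3 normalized counts, and Rpl3, with 7291, 11146 and 9582. Cbx7 was also lowest in replicate 2, and Rpl3 was highest there. Pdgfd lies in a gene-poor stretch, with gaps of 796 kb to Casp12 and 550 kb to Dync2h1. Casp12 had 162, 297 and 88.9 normalized counts, with replicate 2 the highest and replicate 3 the lowest, as for Pdgfd. Dync2h1 had 93.8, 155 and 137. Prkar1b, next to Pdgfa, had 795, 1259 and 702 normalized counts.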

How the data were processed

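Stranded mRNA libraries of 3 biological replicates were sequenced as 50 bp single-end reads. Per the labels and methods, the authors aligned them to mm10 with TopHat (2.0.13), counted reads per gene with HTSeq (0.5.3p3) and scaled them with DESeq. The gene annotation and strand setting are not given in the sources used here. The deposited signal is a table of these normalized counts. In each library 100% of values were whole multiples (within 0.01) of the value of 1 read, so reads were recovered by division. The 3 further columns of per-sample values matched no sample label and were not used.

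A pseudocount of 1 was added before folds and log2 values. The pairwise tests took in genes that had 10 or more reads over both libraries together. Scaling factors (TMM) and the coefficient of variation came from edgeR 4.0.16 in R 4.3.3. The rest used scipy 1.17.1, pandas 2.3.3 and numpy 2.4.6 under Python 3.11.15. Positions and exon lengths came from GENCODE M21 (GRCm38, the build the authors used), matched by symbol for 39368 names, and promoters from RefSeq. The calls were tested on simulated counts with counting error only, and the coefficient of variation on simulated counts with a set spread. False calls under the spread between these libraries were not simulated. The members, lists and tests were chosen with earlier results of these data known. Named genes were the 6 members, of each pathway list the 3 highest per kb and those with over 2-fold range, further list and marker genes picked after their values were seen, chromosomal neighbours and the 3 nearest patterns of each member. Alternatives were other scalings, lengths, pseudocounts, minimums, limits and each replicate left out.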

Additional observations from a re-analysis of the deposited data

How the results depend on the processing

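Scaling by TMM, total reads or median of ratios moved no mean level of a PDGF gene by more than its SD. TMM kept the counts of genes past the limits and tests. Under total reads, 4 genes in place of 5 were called between replicates 1 and 3, beside 52.1% of all genes. At a threshold of 0.01 it was 4 in place of 5 between replicates 2 and 3, beside 54.4%. The order per kb was less stable. With the longest transcript as length, Pdgfrb minus Pdgfc became -0.32 on the log2 scale, from 0.19. Leaving out a replicate gave -0.054 to 0.54 for Pdgfc minus Pdgfa and -0.34 to 2.32 for Pdgfd minus Pdgfb, negative without replicates 3 and 2 respectively. The count of genes with a range of more than 2-fold was 1 to 2 with a replicate left out, which can only narrow a range. No share over all genes is given for that setting. At a limit of 1.5-fold, 1 gene (Pdgfb) stood apart in replicate 1, beside 11.8% of all genes, and 2 (Pdgfa and Pdgfd) in replicate 3, beside 8.82%. With more than 2-fold required, the exact tests called 2, 1 and 2 genes between replicates 1 and 2, 1 and 3, and 2 and 3. The shares of all genes called in these pairs were 19.8%, 8.78% and 16.1%. The common coefficient of variation was 22.5% to 36.6% with a replicate left out. What causes the changes was not tested, beyond the fewer samples or wider limit themselves. With a pseudocount of 10, as with a limit of 3-fold, the range count was 2, without Pdgfa, beside 21.1% and 11.8% of all genes. No paired comparison of conditions was possible because only 1 group was present. The sign-flip tests of the order paired the genes within each library. With 3 libraries no sign-flip test can pass 0.05.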

Other observations

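Among the 9989 other genes with a mean of at least 100 normalized counts, those nearest in pattern to each PDGF gene were listed by the root mean square difference of their centred log2(normalized count + 1) values over the 3 libraries. Such a profile has only 3 points, so closeness is a description. For Pdgfb, 3 genes lay within 0.1, Prr7 (0.058), C5ar1 (0.094) and 2010300F17Rik (0.097). Prr7 was read at 429, 53.6 and 238 in replicates 1, 2 and 3, and C5ar1, the receptor of complement fragment C5a, had 315, 40.9 and 216. For Pdgfd, only Kif1a, a kinesin motor, lay within 0.1 (0.085), with 275, 1194 and 154 normalized counts. Syde2 (0.12) and Ksr1 (0.16) came next. Ksr1 encodes a scaffold of the Raf, MEK and ERK kinases and had 123, 485 and 74.7 normalized counts. For Pdgfa, 32 genes lay within 0.1, led by Hoxc13 (0.011) with 416, 347 and 204, the mitochondrial gene mt-Nd2 and Wbp5. The profiles of Pdgfc, Pdgfra and Pdgfrb, with ranges of 1.39-fold, 1.42-fold and 1.08-fold, had 1006, 942 and 1417 genes within 0.1. Pogz, Akap11 and Gatc led these genes, and the nearest among so many carry little information.

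Pdgfrl, a secreted protein related to the receptor ectodomain, had 187, 38.8 and 124 normalized counts. It was lowest in replicate 2, with a range of 4.72-fold where Pdgfrb had 1.08-fold and Pdgfra 1.42-fold.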
